A study of Mus musculus with 55 samples.

Results

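The genes described here are 10 β cell disallowed genes, a term for genes that most tissues use and that mature β cells keep at low levels. They are Ldha, Slc16a1, Hk1, Hk2, Mgst1, Oat, Cxcl12, Pdgfra, Igfbp4 and Smad3, taken by name from the 47937 genes of the bulk RNA-seq count table, and all 10 passed the filter on low counts. The levels were read in 16 libraries of hand-picked whole islets from male C57B6/J mice at 8 and 25 weeks of age. Wild-type islets (WT, 3 libraries at each age) were compared with islets lacking Eed in β cells (βEedKO, 3 libraries at 8 weeks and 2 at 25) and with heterozygous islets (HET, 3 libraries at 8 weeks and 2 at 25). βEedKO mice carry a floxed Eed allele on both chromosomes and Cre from the rat insulin promoter (RIP-Cre), which acts in β cells, so that every other islet cell keeps Eed. A library held the islets of 1 or more mice, and the βEedKO libraries at 25 weeks were pooled over several. Whole islets also hold α, δ, endothelial, mesenchymal and immune cells, and in such bulk samples fewer cells of a type and less RNA per cell cannot be told apart.

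As background, Polycomb repressive complex 2 places methyl groups on lysine 27 of histone H3 (H3K27me3) at silent genes, and Eed is a core subunit without which the complex falls apart. β cells release insulin in proportion to the ATP they make from glucose. Pyruvate is sent to the mitochondria, and the high-affinity hexokinases, lactate dehydrogenase A and the monocarboxylate transporter MCT1 that other cells use for glycolysis and for lactate or pyruvate traffic are kept low. Forced MCT1 in β cells lets circulating pyruvate trigger insulin release. The other listed genes encode enzymes or signalling proteins that are common in connective tissue and in immature cells.

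In the deposited segmentation of WT islet chromatin, which gives each 200 bp bin of the autosomes 1 letter, 6 of the 10 genes had their annotated start in state L (a bivalent state with high H3K4me3) and 3 in state M (a bivalent state with high H3K27me3). These states held the starts of 18.3% of the 20445 protein-coding genes with a state. Ldha, Hk1 and Pdgfra started in state M. Slc16a1, Hk2, Mgst1, Oat, Cxcl12 and Igfbp4 started in state L. Smad3 was the exception, with its start in the active state B, 800 bp wide, and state L on either side. Along the gene body, states K to P, which are bivalent or Polycomb repressed, covered over 90% of the length of 9 of the 10 genes, from 92.4% in Hk1 to 100% in Mgst1 and Igfbp4, and 51.4% in Smad3. The segment at the start was widest at Ldha, with 16200 bp of state M, and at Pdgfra, with 13800 bp of state M, and state M covered 84.3% of the Ldha gene body.

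**Figure D1:**
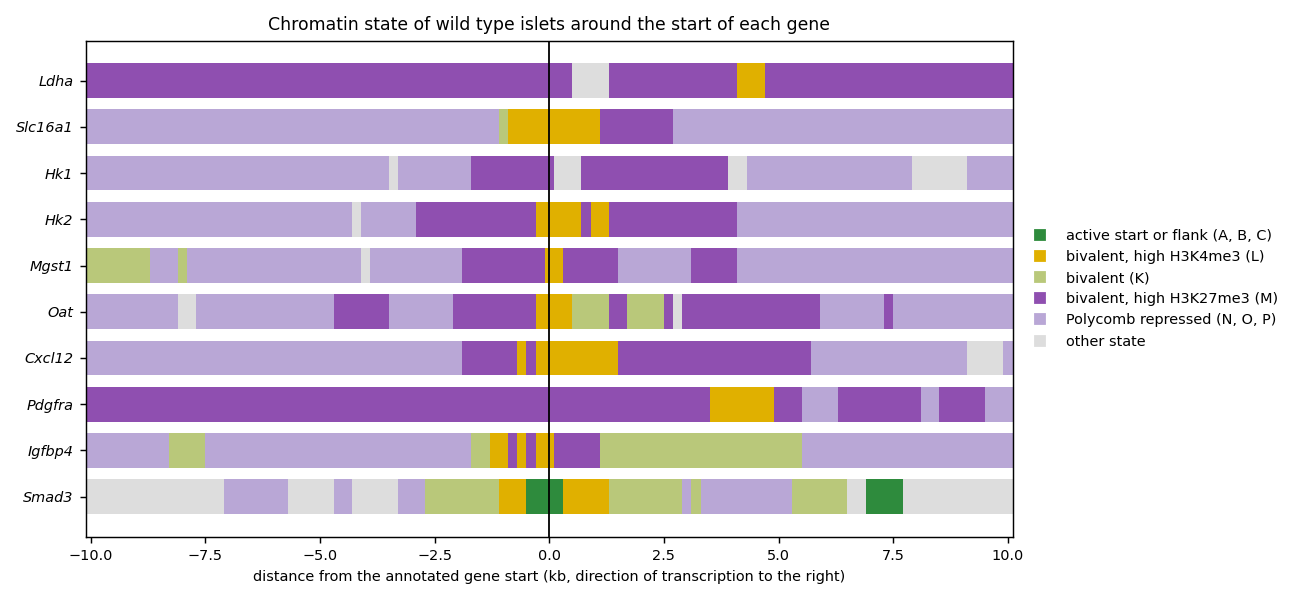
Chromatin state of wild-type islets, sampled every 200 bp, from 10 kb before to 10 kb after the annotated start of each gene (horizontal axis, distance in kb, transcription to the right; 1 row per gene; colours give groups of state letters). The start lies in state L or M in 9 genes, purple fills almost the whole row of Ldha and Pdgfra, and the start of Smad3 alone is green.

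A gene can have more than 1 start. Of 74 annotated transcript starts of the 10 genes, 26 lay in state L, 26 in state M and 1 in state B. All annotated starts were in L or M for Ldha, Slc16a1 and Cxcl12. At Ldha (ENSMUSG00000063229.15, chr7:46841475-46855627, plus strand) the first annotated start, in state M, lies 4364 bp before the start of the next transcript, which falls in the narrow stretch of state L inside the gene. At Hk1 (ENSMUSG00000037012.18, chr10:62268855-62379908, minus strand) the outer start lay in state M and an inner one, 39366 bp downstream, in state L.

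The 250 bases before the RefSeq starts on GRCm38.p6 are printed for the 3 genes that rose at 25 weeks (Hk1, Oat and Pdgfra) and for the lactate pair Ldha and Slc16a1, to show the range of their CpG density. Each runs 5′ to 3′ on the strand of the gene, and capitals mark each CpG.
Ldha, state L, chr7:46845554-46845803: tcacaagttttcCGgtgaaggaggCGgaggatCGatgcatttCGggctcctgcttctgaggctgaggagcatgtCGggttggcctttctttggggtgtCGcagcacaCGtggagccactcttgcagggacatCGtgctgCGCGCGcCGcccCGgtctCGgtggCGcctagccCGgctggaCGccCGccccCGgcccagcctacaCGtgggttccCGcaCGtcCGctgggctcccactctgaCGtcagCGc
Slc16a1, state L, chr3:104638414-104638663: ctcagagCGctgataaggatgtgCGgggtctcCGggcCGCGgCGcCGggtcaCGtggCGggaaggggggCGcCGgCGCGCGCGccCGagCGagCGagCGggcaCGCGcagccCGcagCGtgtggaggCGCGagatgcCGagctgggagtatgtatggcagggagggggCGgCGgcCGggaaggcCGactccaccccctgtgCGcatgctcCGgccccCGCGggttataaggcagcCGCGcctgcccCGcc
Hk1 inner start, state L, chr10:62340422-62340671: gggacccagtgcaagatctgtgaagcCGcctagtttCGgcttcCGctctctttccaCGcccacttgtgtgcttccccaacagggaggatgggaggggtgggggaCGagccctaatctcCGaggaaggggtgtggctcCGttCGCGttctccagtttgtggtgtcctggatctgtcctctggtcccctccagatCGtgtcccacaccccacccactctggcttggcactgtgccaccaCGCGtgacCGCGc
Hk1 outer start, state M, chr10:62379909-62380158: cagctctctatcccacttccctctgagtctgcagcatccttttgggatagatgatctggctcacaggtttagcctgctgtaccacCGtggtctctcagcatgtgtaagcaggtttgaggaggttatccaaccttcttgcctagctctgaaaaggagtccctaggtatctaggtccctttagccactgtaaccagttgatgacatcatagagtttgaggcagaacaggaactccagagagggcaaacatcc
Oat, state L, chr7:132576399-132576648: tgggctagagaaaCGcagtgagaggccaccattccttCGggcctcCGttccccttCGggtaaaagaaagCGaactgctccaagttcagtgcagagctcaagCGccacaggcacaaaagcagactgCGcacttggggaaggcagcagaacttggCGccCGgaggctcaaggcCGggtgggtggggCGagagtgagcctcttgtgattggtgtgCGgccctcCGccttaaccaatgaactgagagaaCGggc
Pdgfra, state M, chr5:75152001-75152250: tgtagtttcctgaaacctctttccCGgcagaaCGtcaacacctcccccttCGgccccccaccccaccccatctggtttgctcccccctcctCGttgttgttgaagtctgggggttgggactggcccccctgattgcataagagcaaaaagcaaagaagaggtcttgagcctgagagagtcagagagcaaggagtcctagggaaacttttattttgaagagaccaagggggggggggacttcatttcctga

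RefSeq windows of 300 bases (250 before to 50 after the start) were matched for all 10 genes, 13 windows in all. Over 32817 such windows the median number of CpG was 7. Slc16a1 had 42 CpG, more than 97.0% of all windows, and Ldha at the start in state L had 30. Igfbp4 had 27, Hk2 and Smad3 had 25 each, Oat had 22, and Cxcl12 and the inner start of Hk1 had 20 each. Mgst1 at its start in state L had 13, the same as the inner start of Ldha in state M. The other windows in state M had 5 CpG at Pdgfra and 1 each at the outer start of Hk1 and the inner start of Mgst1. Across all windows the median was 16 in state L and 9 in state M, against 25 in state A. The letters ACGTG, the core that hypoxia-inducible factors read, were searched on both strands and found in 5 of the 13 windows and in 19.6% of all windows. The 250 bases printed above hold 5 matches at Ldha and 2 at Slc16a1, where a run of CACGTG counts on each strand.

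Library depth was 4645393 to 22925359 counts, and the shallowest library was WT replicate 2 at 25 weeks. Levels are given as CPM (counts over the library total in units of 1000000) scaled by TMM. Eed itself had 13.4 to 15.6 CPM in the 5 βEedKO libraries, 16.3 to 20.5 in HET and 19.3 to 33.1 in WT. The summed level of 10 β cell identity genes was 124243 to 221449 CPM in WT at 25 weeks and 14039 and 17455 CPM in βEedKO at that age. All 10 identity genes had a log2 fold change below 0. Of the 10, 9 were lower with an adjusted p under 0.05 by edgeR, against 2.02% of all genes tested. HET replicate 2 at 8 weeks stood apart, with 5285 CPM over 8 fat genes and 1782 CPM over 8 skeletal muscle genes (lists chosen after these values were seen). WT replicates 3 and 4 and HET replicate 1 at 25 weeks held 58.9 to 84.1 CPM of the muscle genes, against 3.55 to 6.36 CPM in the other 12 libraries. The fat genes had 253 to 380 CPM in the same 3 libraries and at most 198 CPM in those 12, the highest being WT replicate 3 at 8 weeks (the other WT libraries of that age had at most 27.9 CPM) and βEedKO replicate 2 at 25 weeks (156 CPM). In the 3 libraries Ucp1, Adipoq, Plin1 and Myh4 each stood at 3.18% to 6.84% of their level in HET replicate 2. Replicates 1 of WT and βEedKO at 8 weeks were the only libraries of these groups with low interferon-induced genes. All 3 HET libraries of that age were low, with 43.2 to 54.5 CPM over 8 such genes. The WT libraries had 65.0, 3040 and 3271 CPM. The part of this difference in the comparison of HET with WT at 8 weeks was not tested.

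At 25 weeks 3 of the 10 genes, Hk1, Oat and Pdgfra, rose in βEedKO islets, and none fell. The authors report overt diabetes in βEedKO mice of the later age, while those of the younger age were glucose tolerant. Genotype at the later age therefore goes together with high blood glucose. The part of blood glucose in the rises at that age and in the changes between the ages was not tested. A gene counts as called where edgeR's quasi-likelihood test gave it a Benjamini-Hochberg adjusted p under 0.05 among 18685 genes. Of all genes tested, 4.58% were called higher and 2.02% lower. TMM scaling gave 856 genes called higher and 378 lower, and scaling by library size gave 805 and 79. For 9 of the 10 genes both βEedKO libraries lay above all 3 WT libraries, a pattern that 24.7% of all genes tested showed. The median log2 fold change was 1.70 over the 10 genes and 0.03 over all genes. Among all tested genes it was 2.08 over those that start in state M and 0.92 over those that start in state L. An unadjusted p under 0.05 was reached by 8 of the 10, against 20.3% of all genes, and DESeq2 called 5 of the 10 higher, against 7.15%. At 8 weeks edgeR called none of the 10 genes, where 0.428% of all genes were called higher and 0.00535% lower, while 3 of the 10 had an unadjusted p under 0.05, against 7.87% of all genes, and DESeq2 called 1 higher, against 1.92% of all genes.

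**Figure D2:**
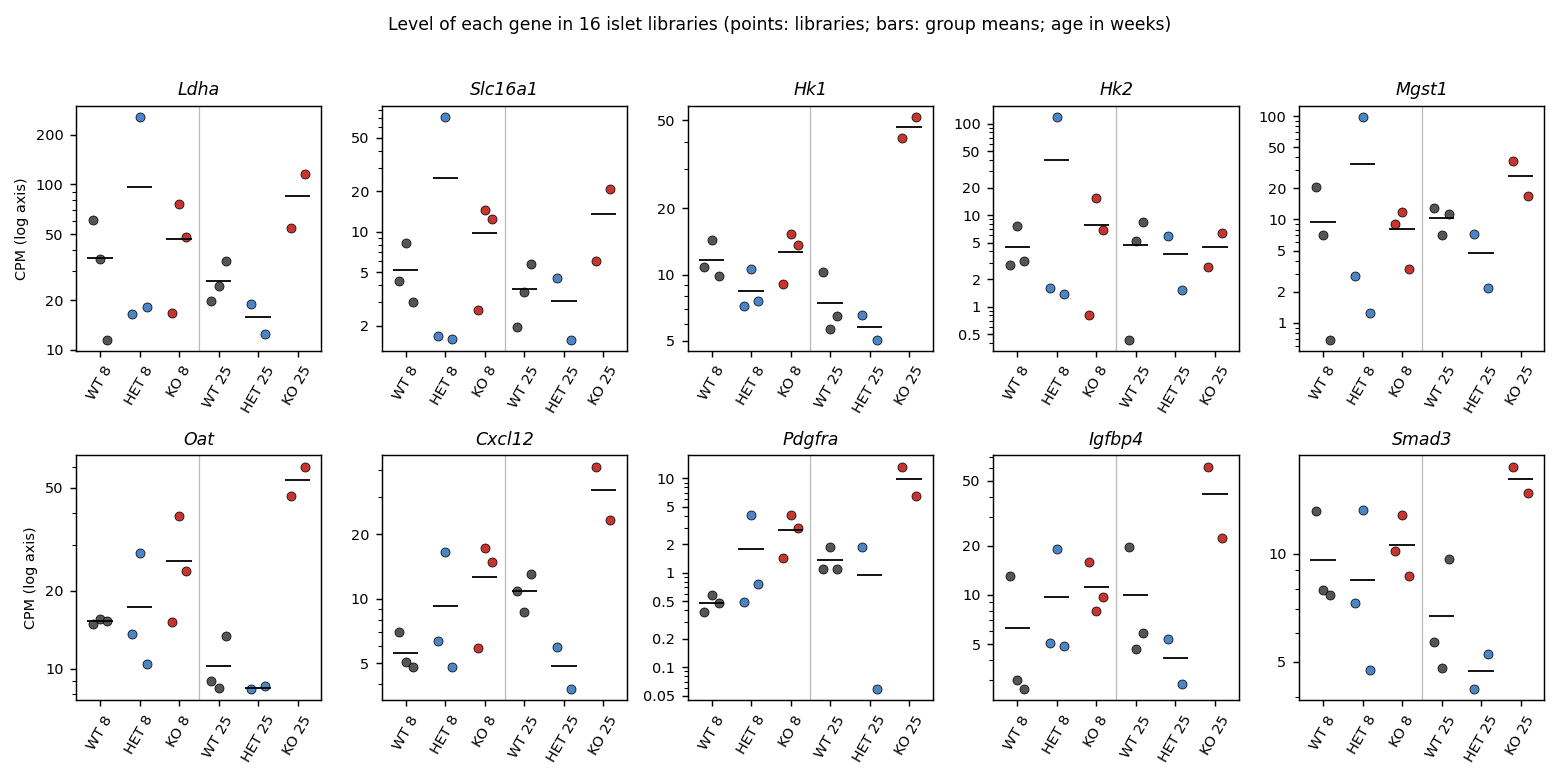
Level of each gene (vertical axis, CPM on a log axis) in 16 libraries by genotype and age in weeks; points are libraries and bars are group means. Both βEedKO libraries at 25 weeks lie above the 5 WT and HET libraries of that age in 9 panels, Hk2 being the other, and 1 HET library at 8 weeks is the highest of all in Ldha, Slc16a1, Hk2 and Mgst1.

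Ldha, the subunit that turns pyruvate into lactate, was the best expressed of the 10 genes per length in WT islets at 8 weeks, with 10.8 ± 7.40 CPM per kb of exon (SD, n = 3), above 83.5% of 21620 protein-coding genes. In WT libraries it had 60.5, 35.3 and 11.5 CPM at 8 weeks and 19.8, 24.4 and 34.4 CPM at 25 weeks. In βEedKO libraries it had 16.7, 76.0 and 47.9 CPM at 8 weeks and 54.7 and 116 CPM at 25 weeks. The groups overlapped at 8 weeks and did not at 25 weeks, yet 1 WT library of 8 weeks lay above the lower βEedKO library of 25 weeks. The log2 fold change at 25 weeks was 1.64 ± 0.68 (SE) with an adjusted p of 0.202 by edgeR, and it was 0.42 ± 0.61 at 8 weeks. Without βEedKO replicate 3 the value at 25 weeks was 1.01.

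Slc16a1 encodes MCT1, which carries lactate and pyruvate across the plasma membrane. Its level was low, with 4.31, 8.26 and 3.02 CPM in WT at 8 weeks and 1.96, 3.54 and 5.72 CPM in WT at 25 weeks. βEedKO libraries had 2.61, 14.5 and 12.5 CPM at 8 weeks and 6.09 and 20.9 CPM at 25 weeks. At 8 weeks βEedKO replicates 4 and 5 lay above all WT libraries and replicate 1 below them, while at 25 weeks the lower βEedKO library was just above the highest WT library. At 8 weeks the difference was 0.93 ± 0.69 on the log2 scale, and at 25 weeks it was 1.76 ± 0.76, with an adjusted p of 0.223 by edgeR at the later age. The value at 25 weeks was 0.62 without βEedKO replicate 3 and 2.37 without replicate 2.

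Hk1, the high-affinity hexokinase of most tissues, had the smallest adjusted p of the 10 genes at 25 weeks. WT libraries had 10.8, 14.4 and 9.85 CPM at 8 weeks and 10.2, 5.64 and 6.50 CPM at 25 weeks, and HET libraries had 5.08 to 10.6 CPM over both ages. βEedKO libraries had 9.06, 15.3 and 13.7 CPM at 8 weeks, within the WT range or close to it, and 41.7 and 51.9 CPM at 25 weeks. The rise at 25 weeks was 6.12-fold (log2 fold change 2.61 ± 0.33, adjusted p = 0.00184 by edgeR), and the log2 fold change at 8 weeks was 0.12 ± 0.29. The difference between the ages was 2.49 ± 0.44 on the log2 scale with an adjusted p of 0.0666 by edgeR, short of the threshold. It passed the threshold without WT replicate 2 at 25 weeks (2.77, adjusted p = 0.0454 by edgeR) and with DESeq2 (2.51, adjusted p = 0.000129). The antisense gene Hk1os overlaps Hk1 over 23112 bp, and whether the counting used strand is not stated, here and for the antisense genes over Hk2 and Pdgfra.

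Hk2, the hexokinase of muscle and fat that hypoxia and insulin induce, did not follow Hk1. WT libraries had 2.85, 7.50 and 3.12 CPM at 8 weeks and 0.44, 5.27 and 8.35 CPM at 25 weeks, and βEedKO libraries had 0.81, 15.5 and 6.92 CPM and then 2.74 and 6.30 CPM. βEedKO and WT overlapped at each age. WT replicate 3, the 8-week WT library with the most fat genes, had the highest Hk2 and Slc16a1 of its group. Without it the 8-week log2 fold changes were 1.39 in place of 0.79 for Hk2 and 1.45 in place of 0.93 for Slc16a1. In that fit edgeR called none of the 10 genes, and 31 of all 18639 genes higher and 0 lower. The 2 WT libraries at 25 weeks with the higher Hk2 were those with the skeletal muscle genes. The log2 fold change at 25 weeks was -0.15 ± 1.10 (adjusted p = 0.963 by edgeR), with a positive sign under library size scaling (0.31), and it was 3.30 against the 1 WT library without those genes, where Hk2 had 2 reads (adjusted p = 0.507 by edgeR). The part of muscle or fat RNA in these values was not tested. The antisense gene Gm17034 overlaps Hk2 over 3007 bp.

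**Figure D3:**
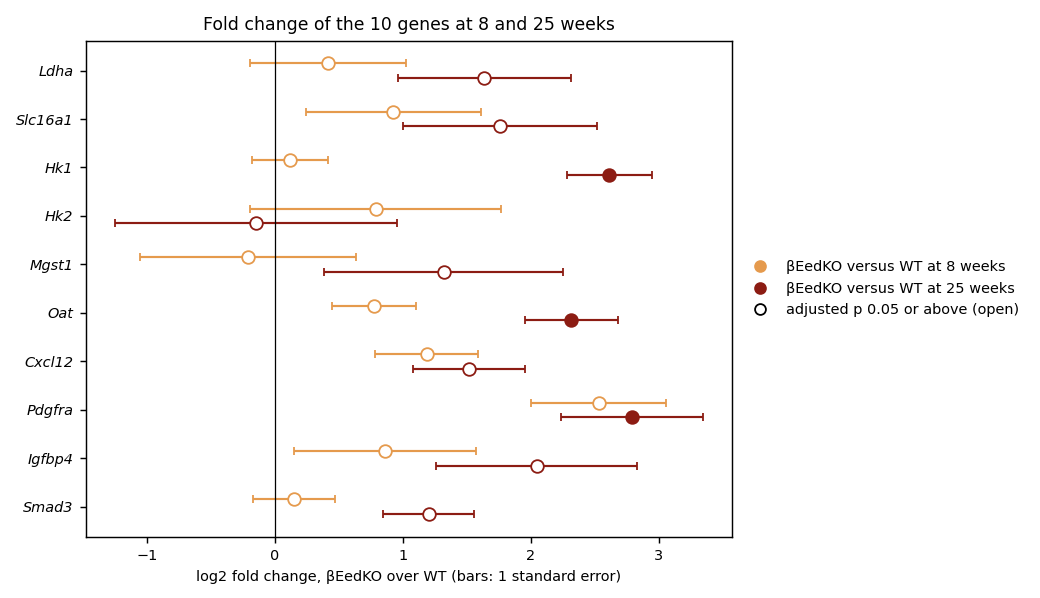
Log2 fold change of βEedKO over WT (horizontal axis; bars, 1 standard error) for each gene at 8 weeks (orange) and 25 weeks (red); filled points have an adjusted p under 0.05. Hk1, Oat and Pdgfra at 25 weeks are filled, Pdgfra is as far to the right at 8 weeks, and Hk1 is near 0 at 8 weeks.

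Oat, ornithine aminotransferase of the mitochondrial matrix, links ornithine to glutamate and proline. It was the steadiest gene in WT islets at 8 weeks, with 14.8, 15.5 and 15.3 CPM, and had 8.94, 8.43 and 13.4 CPM in WT at 25 weeks. βEedKO libraries had 15.2, 38.9 and 23.8 CPM at 8 weeks and 46.3 and 60.3 CPM at 25 weeks. At 8 weeks replicates 4 and 5 lay above all WT libraries and replicate 1 lay among them, with a log2 fold change of 0.78 ± 0.33 and an adjusted p of 0.591 by edgeR. At 25 weeks both libraries lay above every WT and HET library, 4.98-fold (log2 fold change 2.32 ± 0.36, adjusted p = 0.00466 by edgeR). Fgfr2 is annotated over the whole of Oat on the same strand (18921 bp shared), so that reads of the 2 genes could be shared or dropped in counting.

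Mgst1, a membrane-bound glutathione transferase, had the largest SD relative to its mean among the 10 genes in WT islets at 8 weeks. It had 20.7, 7.15 and 0.69 CPM in WT at 8 weeks, 12.9, 7.07 and 11.2 CPM in WT at 25 weeks, 8.97, 11.9 and 3.29 CPM in βEedKO at 8 weeks and 36.4 and 16.8 CPM in βEedKO at 25 weeks. Both βEedKO libraries of 25 weeks were above the WT libraries of that age, and 1 of them was below the highest WT library of 8 weeks. The βEedKO over WT log2 ratio was -0.21 ± 0.85 at 8 weeks, where it turned positive under library size scaling (0.091), and 1.32 ± 0.93 at 25 weeks, with an adjusted p of 0.484 by edgeR. It was 0.63 at 25 weeks without βEedKO replicate 2.

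Among the signalling genes, Pdgfra encodes the receptor for platelet-derived growth factor A, a classic surface protein of fibroblasts and other mesenchymal cells. It was the lowest of the 10 genes per length in WT islets, with 0.0478 ± 0.0100 CPM per kb at 8 weeks. The 6 WT libraries had 0.38, 0.58 and 0.48 CPM at 8 weeks and 1.09, 1.88 and 1.08 CPM at 25 weeks, from 5 to 25 reads. βEedKO libraries had 1.42, 4.06 and 2.94 CPM at 8 weeks and 13.3 and 6.46 CPM at 25 weeks. Pdgfra was the only gene of the 10 whose βEedKO libraries lay above all WT libraries already at 8 weeks, as 6.54% of all genes tested did. The summed level of 10 mesenchymal markers, Pdgfra not among them, was 351, 291 and 206 CPM in these βEedKO libraries and 221, 164 and 163 CPM in WT, and replicate 1, the βEedKO library with the most, had the least Pdgfra. The part of these cells was not tested. An antisense gene, Gm42802, overlaps Pdgfra over 599 bp.

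The log2 fold change of Pdgfra was 2.53 ± 0.53 at 8 weeks, with an adjusted p of 0.0881 by edgeR. It passed the threshold at 8 weeks without βEedKO replicate 1 (2.85, adjusted p = 0.0327 by edgeR) and with DESeq2 (2.57, adjusted p = 0.00214). It stayed short of it with the replicate block (2.51, adjusted p = 0.587 by edgeR), with the 2 groups alone (2.55, adjusted p = 0.242 by edgeR) and with WT and HET pooled as the control (1.28, adjusted p = 0.413 by edgeR). At 25 weeks it rose by 2.79 ± 0.55 (adjusted p = 0.0149 by edgeR). That call was lost without WT replicate 4 (2.63, adjusted p = 0.0722 by edgeR), without βEedKO replicate 2 (2.15, adjusted p = 0.149 by edgeR) and with the replicate number as a block (2.53, adjusted p = 0.0906 by edgeR). The change between the ages was 0.26 ± 0.79.

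Cxcl12, a chemokine of stromal cells that acts through Cxcr4, had 6.98, 5.06 and 4.82 CPM in WT at 8 weeks and 10.9, 8.73 and 13.1 CPM in WT at 25 weeks. In βEedKO it had 5.88, 17.4 and 14.9 CPM at 8 weeks and 41.4 and 23.2 CPM at 25 weeks. Replicates 4 and 5 at 8 weeks were above all WT libraries of that age, and replicate 1 was among them. The difference on the log2 scale was 1.19 ± 0.40 at 8 weeks (adjusted p = 0.422 by edgeR) and 1.52 ± 0.44 at 25 weeks (adjusted p = 0.0679 by edgeR), where DESeq2 gave an adjusted p of 0.0199.

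Igfbp4 encodes a secreted protein that binds insulin-like growth factors. WT libraries had 13.1, 3.02 and 2.65 CPM at 8 weeks and 19.6, 4.67 and 5.88 CPM at 25 weeks, and βEedKO libraries had 15.8, 8.02 and 9.78 CPM and then 61.0 and 22.4 CPM. In both WT groups 1 library stood well above the rest, and at 25 weeks the lower βEedKO library was close to the highest WT library. At 25 weeks its log2 fold change was 2.05 ± 0.78 (adjusted p = 0.168 by edgeR), with 1.12 when βEedKO replicate 2 was left out and 2.93 when WT replicate 2 was. At 8 weeks it was 0.86, and 1.96 without WT replicate 1.

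Smad3 carries the transforming growth factor β signal to the nucleus. It had 13.2, 7.91 and 7.68 CPM in WT at 8 weeks, 5.67, 4.82 and 9.67 CPM in WT at 25 weeks, 10.2, 12.8 and 8.65 CPM in βEedKO at 8 weeks and 17.5 and 14.7 CPM in βEedKO at 25 weeks. The 25-week libraries did not overlap, and the lower βEedKO library was near the highest WT library of 8 weeks. Its log2 fold change at 25 weeks, 1.20 ± 0.36, was the smallest of the 9 above 0 (adjusted p = 0.0765 by edgeR), and it was 0.15 ± 0.32 at 8 weeks.

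The 2 βEedKO libraries of 25 weeks divided the genes evenly. Replicate 2 was the higher for Mgst1, Cxcl12, Pdgfra, Igfbp4 and Smad3, and replicate 3 for Ldha, Slc16a1, Hk1, Hk2 and Oat. Replicate 2 also had more of the summed markers of mesenchymal cells (561 against 444 CPM over 10 genes), macrophages (448 against 158 CPM over 8) and acinar cells (376040 against 11508 CPM over 8). In WT at 25 weeks these sums were 179 to 280, 93.6 to 181 and 28524 to 206866 CPM. All 10 mesenchymal markers were higher in both βEedKO libraries than in the WT libraries of that age, as 24.7% of all genes tested were. Only 3 of the 10 markers were called by edgeR, Col1a1 (1.84), Col1a2 (1.51) and Dcn (1.89 on the log2 scale), against 4.58% of all genes called higher. Endothelial sums were 421 and 508 CPM in βEedKO and 407 to 475 CPM in WT. The summed markers of 2 further cell groups were higher in both βEedKO libraries than in WT. The sums were 1067 and 1262 against 579 to 876 CPM over 8 ductal genes. Over 6 genes of α, δ and PP cells they were 15377 and 17026 against 10060 to 12099 CPM. Gene by gene, 3 of the 8 ductal genes had both βEedKO libraries above all WT libraries, and 1 had both below. Of the 6 genes of α, δ and PP cells, 3 had both above and 0 had both below. Among all genes tested 24.7% had both above. The part of these cells in the levels of the 10 genes was not tested.

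At 8 weeks βEedKO replicate 1 was the lowest of its group for 7 of the 10 genes. Without both replicates 1 of that age the median log2 fold change of the 10 genes was 1.17 in place of 0.78. All 10 were above 0, and none was called by edgeR. Of all 18145 genes in that fit, 78 were called higher and 7 lower, and the median log2 fold change was -0.01. Between 8 and 25 weeks the change in the βEedKO effect was called for none of the 10 genes, against 0.091% of all genes called higher, with an unadjusted p under 0.05 for 2 of the 10 (Hk1 and Oat), against 7.76% of all genes, and 1 call higher by DESeq2, against 0.888%. The change ranged from -0.94 for Hk2 to 2.49 for Hk1.

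When the 2 WT libraries with muscle and fat genes were left out at 25 weeks, none of the 10 genes was called by edgeR. Their log2 fold changes in that fit were 2.14 for Hk1 (adjusted p = 0.117 by edgeR), 2.52 for Oat (0.127) and 3.13 for Pdgfra (0.220), and all 10 were above 0. The fit, chosen after the data were seen, has 1 WT library at 25 weeks, the shallowest of the series, whose spread is assumed to equal that of the other groups, and it called 40 genes higher and 42 lower in all.

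In HET islets none of the 10 genes was called against WT by edgeR at either age, where 0% of 18828 genes were called higher. By edgeR 0 of the 10 had an unadjusted p under 0.05 at each age, against 14.6% of all genes at 8 weeks and 1.12% at 25 weeks. DESeq2 called none of the 10, but it gave Slc16a1 no adjusted p at 8 weeks. Of all genes it called 0.637% higher and 1.52% lower at 8 weeks, and 0.0106% and 0.00531% at 25 weeks. At 8 weeks HET replicate 2, the library with the fat and muscle genes, had the highest level of the 16 libraries for Ldha (256 CPM), Slc16a1 (71.5), Hk2 (118) and Mgst1 (98.5). The other HET libraries of that age had 16.4 and 18.2 CPM of Ldha, 1.67 and 1.58 of Slc16a1, 1.60 and 1.38 of Hk2, and 2.86 and 1.24 of Mgst1. With all 3 libraries the log2 fold changes of HET over WT were 1.44 for Ldha, 2.27 for Slc16a1, 3.17 for Hk2 and 1.85 for Mgst1. Without replicate 2 they were -1.05, -1.67, -1.59 and -2.21. At 25 weeks all 10 genes had a log2 fold change of HET over WT below 0, with a median of -0.51. Among all genes tested 49.6% were above 0 and the median was 0. The 2 HET libraries of that age had 5.08 to 6.54 CPM of Hk1 and 8.33 to 8.58 CPM of Oat, within or below the WT range. They had 0.0583 to 1.85 CPM of Pdgfra.

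**Figure D4:**
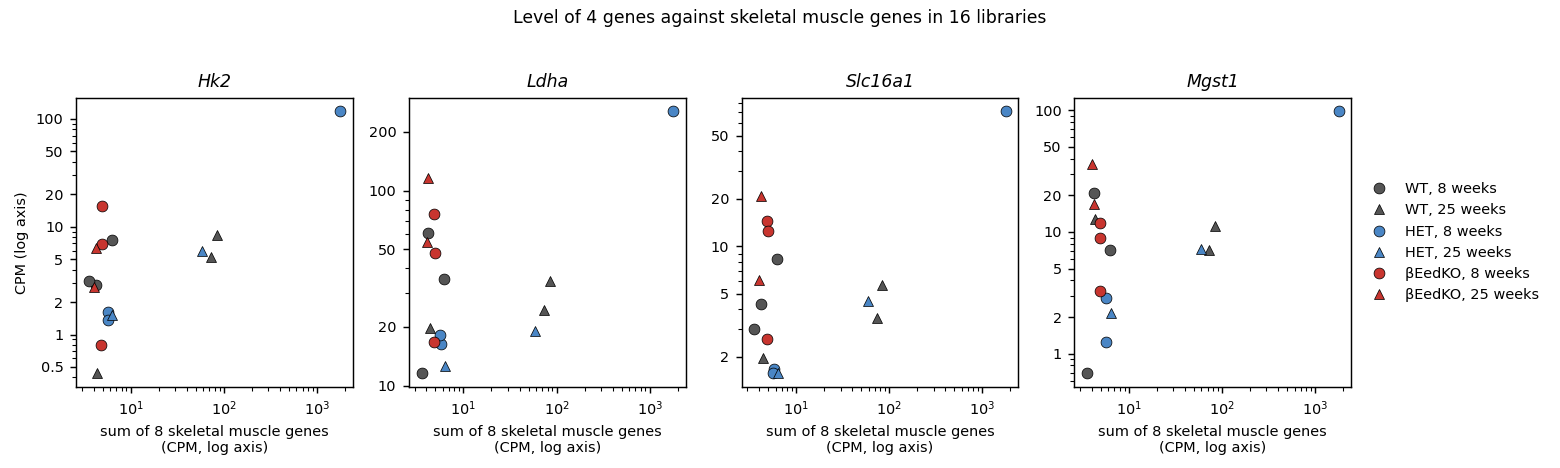
Level of Hk2, Ldha, Slc16a1 and Mgst1 (vertical axes, CPM) against the summed level of 8 skeletal muscle genes (horizontal axes, CPM; all axes are log axes) in 16 libraries; colour gives genotype and shape gives age. The HET library at the upper right has 1782 CPM of muscle genes and the highest level of each gene, 3 libraries of 25 weeks lie between 58.9 and 84.1 CPM, and the βEedKO libraries lie at the left.

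Other genes of the same pathways, and other genes named as disallowed, were read in the same fit. Of 20 further disallowed genes, 19 had a log2 fold change above 0 at 25 weeks, with a median of 1.35. Among all genes tested 51.7% were above 0. Only Tgm2, a transglutaminase, was called among the 20 (2.85, adjusted p = 0.0119 by edgeR). Of all genes tested 4.58% were called higher and 2.02% lower. Of 17 glycolytic genes none was called by edgeR, 11 were above 0 and the median was 0.16. Of 16 genes of lactate and pyruvate handling, Slc16a3, the lactate exporter MCT4, rose (2.81, adjusted p = 0.0484 by edgeR). Pcx, pyruvate carboxylase, fell by 2.52 and Emb, a chaperone of monocarboxylate transporters, fell by 1.90 on the log2 scale. Ldhb (-0.86), Slc16a7 (0.79) and Bsg (0.13), the general chaperone of these carriers, were not called.

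Of 25 tested genes of the Cxcl12, PDGF, IGF and TGF-β pathways, 4 rose at 25 weeks and none fell. Of all genes tested 4.58% were called higher and 2.02% lower. The 4 genes were Igf2 (3.05), Tgfb2 (1.66), Pdgfb (1.33) and Tgfbr2 (1.32 on the log2 scale), 3 ligands and 1 receptor. Igf2 was also called at 8 weeks. The partners Cxcr4 (0.86), Ackr3 (0.69), Pdgfa (-0.68), Pdgfrb (0.53), Igf1r (-0.76), Tgfbr1 (-0.07), Smad2 (-0.16) and Smad4 (-0.18) were not called. Of 18 genes of ornithine and glutathione metabolism none was called by edgeR at 25 weeks, including Mgst2 (1.84 ± 1.88), Mgst3 (0.79 ± 0.55) and Odc1 (-0.42 ± 0.75), and the median was 0.08.

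Start states and calls can be set side by side. Of all tested genes that started in state M, 27.1% of 902 were called higher at 25 weeks, and of those in state L 13.9% of 2512, against 0.429% of 6533 in state A and 2.39% of 3008 in state B. Of the 10 genes, Hk1 and Pdgfra of the 3 in state M and Oat of the 6 in state L were called. Ldha, in state M over most of its length, and Smad3, in state B, were not.

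Over the 16 libraries the gene whose log2 CPM was most like that of Ldha among 9580 genes with a mean of at least 10 CPM was Slc16a1 (r = 0.92), followed by Ephx2 (0.90) and Slc27a2 (0.87). For Slc16a1 these were Pfkfb3 (0.94), Stom (0.94) and Gja1 (0.93). The points share library content, and without HET replicate 2 at 8 weeks the correlation of Ldha with Slc16a1 over 15 libraries was 0.87. That of Hk2 with the summed muscle genes was 0.75 over 16 libraries and 0.36 over 15, and that of Ldha was 0.43 and -0.15.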

How the data were processed

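Bulk RNA-seq counts of 16 islet libraries and a chromatin-state segmentation of WT islets were analysed. The authors deposited raw read counts per gene, made with TopHat2 2.0.13 on GRCm38 and featureCounts (Subread 1.5.0-p1) on Gencode gene models; the strand setting is not given in the sources used here. The segmentation that the authors deposited holds EpicSeg state letters in bins of 200 bp, made from averaged replicates. Symbols and starts came from a later Gencode release of the same build for 47224 of 47937 genes. Promoter sequences came from RefSeq.

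The analysis used R 4.3.3 and edgeR 4.0.16 (TMM, filterByExpr by group, quasi-likelihood test, Benjamini-Hochberg adjustment). WT and βEedKO (11 libraries, 18685 genes) were fitted together, and HET was compared in a fit of all 16 (18828 genes). The standard error is the log2 fold change over the square root of F. DESeq2 1.42.0, other scalings, no filter, pooled controls, 2 groups alone, a replicate block and leaving out libraries were alternatives. The fit was tested on simulated counts. Levels between genes are compared per kb of exon. Replicates are libraries, and where they share mice or culture is not stated. Each p-value sets a difference between groups against the spread between these libraries, estimated over all groups of the fit.

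Deviations from the group mean were correlated between WT and βEedKO libraries that share a replicate number (r = 0.58 and 0.30 at 8 weeks, 0.27 and 0.40 at 25 weeks). At 8 weeks βEedKO replicate 5 was likewise correlated with WT replicates 3 (0.57) and 4 (0.39), whose numbers differ. Deviations within a group sum to 0, so with 2 βEedKO libraries at 25 weeks each r recurs with the opposite sign. The labels do not say that a number marks a litter or day. The WT and HET pairs had r = 0.13, 0.043 and 0.16. The genes, lists and named partners were chosen with earlier results of these data known. Named are all 10 genes, at most 4 called genes of each other list with the largest fold change at 25 weeks, listed partners of the 10 (another listed partner is not reported here), and the 3 genes most like Ldha and Slc16a1. No 2 libraries of a group were duplicates. The single-cell libraries, the human libraries and the ChIP-seq signal were not used here.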

Additional observations from a re-analysis of the deposited data

How the results depend on the processing

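Over 508 recomputed log2 fold changes of single genes, 451 kept their direction and their side of the threshold, 14 passed it only in the alternative, 6 lost it and 37 changed sign; every gene that changed sign was uncalled in the fit as reported. Hk1 and Oat at 25 weeks were called in each alternative but the one, chosen after seeing the data, without the 25-week libraries that held fat and muscle genes. The number called at 25 weeks, 3, was 5 with DESeq2 (also Cxcl12 and Smad3) and 6 with WT and HET pooled (also Igfbp4). It was 4 with library size alone, with no filter and with the 2 groups alone (in each case also Cxcl12). It was 2 with the block and 2 to 3 when 1 WT library was left out. The genes called higher among all tested were 856 of 18685 as reported, 1336 with DESeq2 and 1828 of 18828 with pooled controls. They were 805 with library size alone and 1067 of 30748 with no filter. The 2 groups alone gave 1037 of 17188, and the block 591. At 8 weeks the number of the 10 genes called was 1 with DESeq2 and 0 to 1 on leaving out a library. For the change between ages it was 1 with no filter, with DESeq2 and with pooled controls, in each case Hk1, and 0 to 1 on leaving out a library. With library size alone as the scaling, the median of all genes moved to 0.20 at 8 weeks and 0.27 at 25 weeks, and that of the 10 genes to 0.97 and 2.06. The count of genes starting in L or M, 9, was 3 when every annotated transcript start had to lie there.

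At 8 weeks Mgst1 turned to 0.091 with library size alone, to 1.16 with the replicate block and to 0.97 without both replicates 1. With pooled controls Ldha was -0.50, Slc16a1 -0.62 and Hk2 -1.54. At 25 weeks Hk2 was 0.31 with library size alone, 0.99 with the block, 0.045 with pooled controls and 3.30 without the fat and muscle libraries, and its change between ages was 0.61 with the block, 1.59 with pooled controls and 2.52 without those libraries. The change of Cxcl12 was -0.21 without both replicates 1. HET against WT at 8 weeks with the block was -1.06 for Ldha, -1.49 for Slc16a1, -1.12 for Hk2 and -2.27 for Mgst1. Apart from Pdgfra at 25 weeks the block changed no call among the 10 genes, and it cut the genes called at 8 weeks from 81 to 0. The cause of these shifts was not tested.

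When 1 library was left out, the 8-week fold change ranged from -0.78 to 1.02 for Mgst1, -0.13 to 0.99 for Ldha, -0.042 to 0.32 for Hk1, -0.22 to 1.39 for Hk2 and -0.028 to 0.42 for Smad3. For the others it was 0.54 to 1.45 for Slc16a1, 0.36 to 1.05 for Oat, 0.89 to 1.53 for Cxcl12, 2.16 to 2.85 for Pdgfra and 0.48 to 1.96 for Igfbp4. At 25 weeks Hk2 ranged from -0.87 to 0.52, Ldha from 1.01 to 2.06, Slc16a1 from 0.62 to 2.37, Hk1 from 2.44 to 2.89, Mgst1 from 0.63 to 1.77, Oat from 2.12 to 2.56, Cxcl12 from 1.01 to 1.88, Pdgfra from 2.15 to 3.22, Igfbp4 from 1.12 to 2.93 and Smad3 from 0.99 to 1.57. The change between ages ranged from -0.17 to 0.67 for Cxcl12, -0.37 to 0.67 for Pdgfra, -1.68 to 0.056 for Hk2 and -0.32 to 1.45 for Slc16a1. HET against WT at 8 weeks ranged from -1.05 to 1.95 for Ldha, -1.67 to 2.82 for Slc16a1, -1.59 to 3.76 for Hk2 and -2.21 to 3.03 for Mgst1. Depth limits Pdgfra most, with 1 to 25 reads in 9 of the 11 WT and HET libraries, and Hk2 and Slc16a1 in the shallowest library, with 2 and 9 reads.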
